A study of Panax japonicus with 5 samples.

Results

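The enzymes that build chlorophyll and the other tetrapyrroles were followed through 5 tissues of Panax japonicus, a perennial of the ginseng genus with a bamboo-like rhizome. Members were all contigs that the study's annotation table lists under 13 enzyme numbers of this pathway, grouped by their Trinity gene identifier into unigenes, which gave 87 unigenes of the 135235 in the assembly. Of these, 47 belonged to 8 early enzymes, from glutamyl-tRNA to protoporphyrin IX, and 40 to 5 late enzymes, from magnesium insertion to chlorophyll. The rule of choice used annotation and no expression value, though it was set with earlier results of these data known. The copy of the table at hand lists 146 of the 241 contigs it states for these entries. Its list is shortened for protoporphyrinogen oxidase (22 of 25 contigs), magnesium chelatase (22 of 38) and protochlorophyllide reductase (22 of 98), and the remaining contigs of those 3 entries were not analysed here.

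The 5 libraries came from 1 untreated plant, 7 years old and grown outdoors in a medicinal plant garden: flower, leaf, a younger rhizome segment (rhizome_Y), an older one (rhizome_O) and the secondary root (secRoot). Each tissue had 1 library, so no test between tissues was possible, no p-value is given, and the difference between any pair of tissues has no replicate check. Intervals are 95% counting intervals, which do not cover variation between plants or between library preparations. In such bulk tissue, fewer cells with a transcript and less transcript per cell cannot be told apart.

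Plants make all tetrapyrroles in plastids from glutamate. A common trunk leads to protoporphyrin IX, where the pathway divides: ferrochelatase inserts iron and opens the heme branch, which every living cell needs, and magnesium chelatase inserts magnesium and opens the chlorophyll branch, which serves photosynthetic tissue. Enzymes before this point are termed early and those after it on the magnesium side late.

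Values are FPKM, read pairs scaled by the length of the transcript and by the depth of the library, summed over the contigs of a unigene and over the unigenes of an enzyme. Values are given throughout in the order flower, leaf, rhizome_Y, rhizome_O and secRoot, unless another is stated. The libraries held 2403221, 4614642, 2836971, 3382436 and 4920387 counts. Where no count was seen, up to 3 remain possible, which for a transcript of 1000 bp corresponds to FPKM 1.25, 0.65, 1.06, 0.887 and 0.61. The labelled tissues were checked on 5 photosynthesis enzymes with 35 unigenes, whose summed FPKM was 1359, 7804, 256, 327 and 202. Photosynthesis transcripts were therefore most abundant in leaf and next in flower, and the underground tissues held less of them. FPKM is relative to each library's total. TMM factors over all 5 libraries would shift log2 values by -2.39, 3.94, -1.54, 1.2 and -1.20, so each direction between tissues given here is relative to that total. Ratios of late to early enzymes within a tissue are free of this choice. TMM factors over the 4 tissues other than leaf lay between 0.953 and 1.05.

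The leaf library stood apart from the others in which unigenes it held. Among the 87 members, 30 had a leaf FPKM over 20 times the mean of the other 4 tissues, 54 had one under 1/20 of it and 3 lay between. Of the 30 leaf members, 18 had 0 counts in all 4 other tissues and none had more than 10, while the 54 others held at most 5 leaf counts each and 41 of them held 0. Each of the 13 enzymes had members of both kinds. With at least 20 counts over the 5 libraries, which 60 members reached, 24 were over 20 times higher in leaf (16 of 34 early, 8 of 26 late) and 33 over 20 times lower (17 early, 16 late). The same rules held for 36.5% and 60.7% of the 47667 unigenes tested, so the division was general to the unigenes and not particular to tetrapyrrole enzymes. The plot of leaf FPKM against the mean of the other tissues shows this gap.

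**Figure D1:**
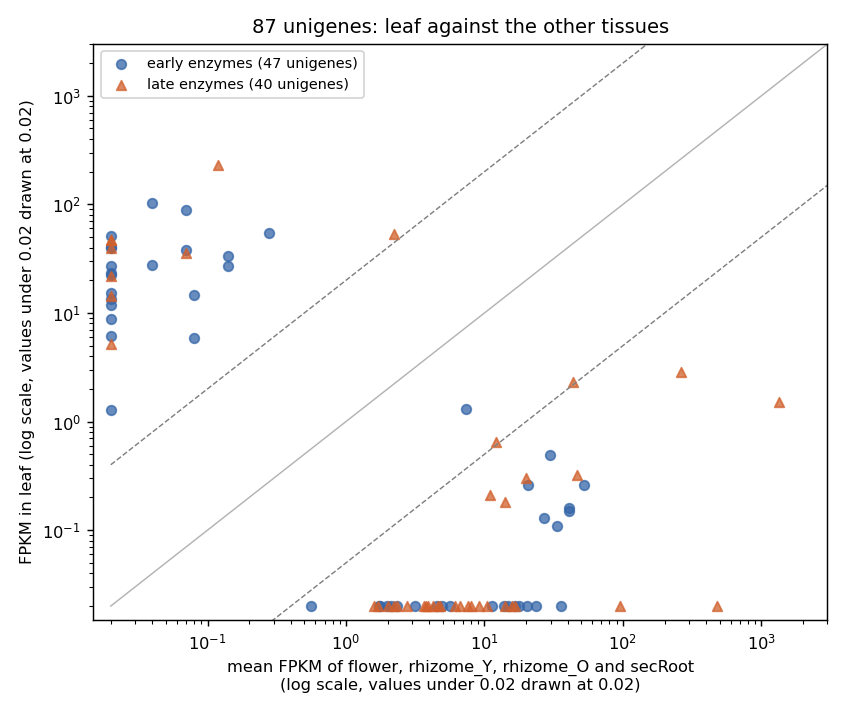
Each point is 1 of the 87 unigenes, with mean FPKM over flower, rhizome_Y, rhizome_O and secRoot on the x axis and leaf FPKM on the y axis, both on log scales. Circles are early and triangles late enzymes, the solid line marks equal FPKM and the dashed lines mark 20-fold differences. The points form a leaf group of 30 and a group of 54 from the other tissues, with 3 between the dashed lines.

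Over all 30 and 54 members, with no minimum count, those of the leaf group were longer (median 1148 bp) than those of the other group (550.5 bp). Only 24 and 33 of them held at least 20 counts, so members of few counts weigh more in the other group. Median lengths at that minimum and over all unigenes are not given, so the gap is not a trait of the leaf group. The members came from 73 Trinity read clusters, and 3 of these clusters held both kinds. In TR67698, a cluster of glutamyl-tRNA reductase, unigene c0_g2 had 0, 190, 0, 0 and 0 counts in flower, leaf, rhizome_Y, rhizome_O and secRoot, and its neighbour c0_g1 had 103, 3, 88, 61 and 180. In TR62607, a cluster of hydroxymethylbilane synthase, c1_g2 had 0, 223, 0, 0 and 0 counts and c1_g1 had 57, 0, 30, 58 and 55. Whether such partners are 1 gene assembled separately or different genes cannot be told apart here, and why leaf differed was not tested. Enzymes are therefore compared between leaf and the other tissues by their sums, and single unigenes among the other 4 tissues.

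Transcripts of the early enzymes were present in every tissue. Glutamyl-tRNA reductase, which makes the first committed intermediate and is the main control point of the trunk, had a summed FPKM of 129, 91.0, 99.6, 73.7 and 117 over 10 unigenes. Flower and secRoot were not separated by counting error (ratio 1.11, interval 0.905 to 1.35), and secRoot exceeded rhizome_O (rhizome_O to secRoot 0.632, 0.510 to 0.779). TR67593|c0_g1 gave 32.2, 0.11, 27.6, 33.7 and 39.7 and was highest in secRoot, TR67698|c0_g1 gave 41.5, 0.49, 28.7, 17.5 and 31.6 and was highest in flower, and TR65894|c0_g2 gave 27.1, 0, 29.7, 10.95 and 26.4 and was lowest, outside leaf, in rhizome_O.

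Glutamate-1-semialdehyde aminomutase, which completes 5-aminolevulinate, had 50.9, 93.2, 52.1, 35.9 and 28.6. Leaf was highest, and the order of the underground tissues ran from rhizome_Y to secRoot (rhizome_Y to secRoot 1.82, 1.3 to 2.55). Outside leaf the sum was almost entirely TR56628|c0_g1 with 44.6, 0, 41.5, 34.8 and 22.9, and in leaf it came from TR57805|c0_g1 (216 leaf counts, FPKM 38.2) and the 417 bp TR35944|c0_g1 (68 leaf counts, FPKM 54.95). Counted without regard to length, this enzyme no longer differed between flower and leaf beyond counting error.

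Porphobilinogen synthase, which joins a pair of 5-aminolevulinate molecules into the first pyrrole, showed the clearest graded pattern of the trunk. Its 2 unigenes summed to 90.2, 88.7, 52.95, 39.9 and 27.99. Flower and leaf were alike within counting error (flower to leaf 1.02, 0.868 to 1.2), and each of the next steps was larger than counting error: flower to rhizome_Y 1.70 (1.40 to 2.08), rhizome_Y to rhizome_O 1.3 (1.06 to 1.65) and rhizome_O to secRoot 1.43 (1.14 to 1.79). TR60707|c0_g1 carried the value outside leaf (259, 1, 182, 165 and 163 counts) and TR67569|c0_g1 in leaf (0, 607, 0, 2 and 0 counts).

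Hydroxymethylbilane synthase, which links porphobilinogen units into the linear tetrapyrrole, had 26.6, 94.3, 11.4, 25.6 and 17.7. Leaf stood highest, with flower at 0.282 of leaf (0.180 to 0.426). It was the one early enzyme lower in rhizome_Y than in rhizome_O beyond counting error (ratio 0.445, 0.261 to 0.744), a difference resting on 30 against 58 counts of TR62607|c1_g1.

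Uroporphyrinogen-III synthase, which closes the ring, was the least abundant early enzyme in leaf and flower, with 23.6, 36.4, 19.2, 27.2 and 18.4. No pair of tissues among flower, rhizome_Y, rhizome_O and secRoot differed beyond counting error, although by counts without length flower exceeded each of the other 3. The leaf value came mainly from TR58401|c0_g1 (154 leaf counts, FPKM 27.6). TR34074|c0_g1, 361 bp long, gave 5.84, 0, 18.3, 20.9 and 14.4. TR48047|c0_g1, described after its values were seen, had 15.8, 0, 0.96, 2.01 and 0.83. They held 3, 0, 11, 15 and 15 counts and 28, 0, 2, 5 and 3 counts. Outside leaf flower was the lowest tissue for TR34074|c0_g1, beyond counting error only against rhizome_O (flower to rhizome_O 0.28, 0.052 to 0.99). For TR48047|c0_g1 flower was the highest. The underground tissues of TR34074|c0_g1 were not separated by counting error, and those of TR48047|c0_g1 held at most 5 counts each.

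Uroporphyrinogen decarboxylase, whose product still serves as a porphyrin precursor for both branches, had 121, 88.8, 63.3, 60.25 and 60.24. The 3 underground tissues were level, and flower was 1.92 times rhizome_Y (1.47 to 2.49). That excess did not come from the most abundant member, TR59794|c0_g1, which had 36.9, 0.16, 43.4, 41.5 and 42.4 and was lowest in flower among the 4 tissues. It came from shorter unigenes, among them TR57809|c0_g1 with 36.0, 0, 12.4, 9.01 and 9.54 and TR57809|c0_g2 with 30.2, 0, 7.51, 9.21 and 8.30, both described after their values were seen. By counts without length, flower and rhizome_Y did not differ beyond counting error for this enzyme. TR51537|c0_g1 was its highest leaf unigene (195 leaf counts, FPKM 39.3, and 0 counts elsewhere).

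Coproporphyrinogen oxidase, the oxygen-requiring step toward protoporphyrinogen IX, had 66.1, 110, 63.7, 48.9 and 29.8. Leaf was highest, flower and rhizome_Y were alike within counting error (1.04, 0.697 to 1.52), and secRoot was lowest, at rhizome_Y to secRoot 2.14 (1.48 to 3.16). TR58763|c0_g1 gave 39.9, 0.15, 61.1, 42.4 and 18.9 and TR54451|c0_g1 carried leaf with 585 counts and FPKM 103. Taken alone, TR58763|c0_g1 was lower in flower than in rhizome_Y (0.653, 0.494 to 0.862). TR56136|c0_g1, described after its values were seen, added FPKM 26.2 to the flower sum on 18 counts.

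Protoporphyrinogen oxidase, the last step before the branch, was the one early enzyme with its lowest sum in leaf, at 82.1, 53.5, 59.0, 64.1 and 59.75. Flower exceeded leaf 1.53-fold (1.15 to 2.07), or 2.63-fold by counts without length (2.18 to 3.18), and the underground tissues did not differ beyond counting error. Its 3 unigenes outside leaf were of near equal abundance: TR64437|c0_g1 had 30.9, 0.26, 17.0, 19.4 and 15.3, TR67752|c0_g1 had 31.8, 0.13, 21.4, 30.5 and 24.4, and TR66891|c0_g1 had 19.3, 0, 20.7, 11.9 and 19.5. In leaf TR58725|c0_g2 had 183 counts and FPKM 33.7. This list is one of the 3 shortened ones, and TR58725|c0_g2, TR64437|c0_g1 and TR66891|c0_g1 also carry the number of a pyridoxal phosphate oxidase.

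**Figure D2:**
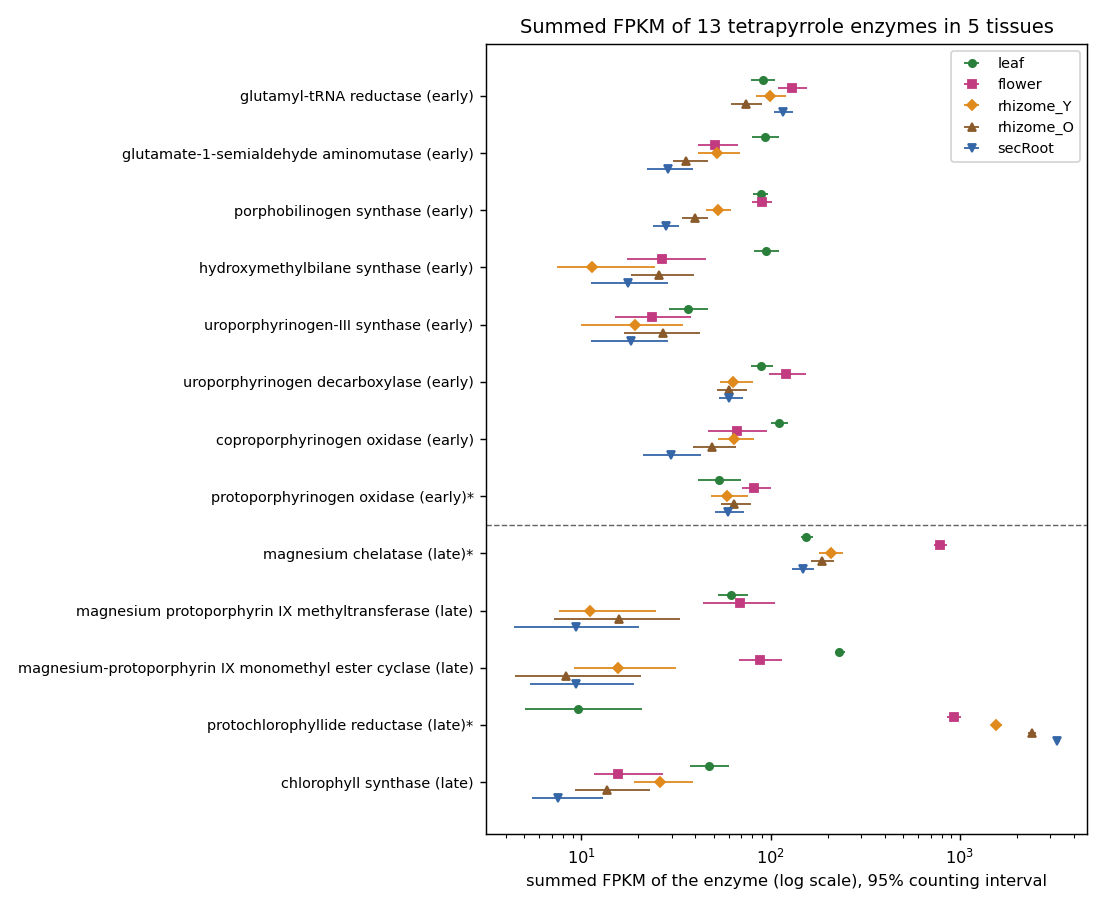
Summed FPKM on a log x axis for each of the 13 enzymes in pathway order, early above and late below the dashed line, with 1 symbol per tissue and bars for the 95% counting interval. An asterisk marks the 3 shortened lists. Early enzymes lie between 11.4 and 129 in all tissues, whereas the late enzymes spread from 7.49 to 3270.

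The late enzymes were more uneven. Magnesium chelatase, the multi-subunit enzyme that commits protoporphyrin IX to chlorophyll, had 783 (725 to 849), 154 (144 to 168), 207 (180 to 241), 188 (164 to 216) and 148 (130 to 169) over 16 unigenes. Flower was 5.09 times leaf (4.59 to 5.64) and 3.78 times rhizome_Y (3.23 to 4.44). One 526 bp unigene set this order: TR32855|c0_g1 had 578, 5, 155, 192 and 209 counts and FPKM 635, 2.87, 145, 150.3 and 113, which was 81.1%, 1.86%, 69.8%, 80% and 76.3% of the enzyme's sum. Without it the sums were 148, 151, 62.5, 37.5 and 35.0, so flower and leaf became alike and both stood above the underground tissues. As CPM, counts scaled by library depth with length not used, the whole enzyme was also at 302 in flower and 283 in leaf.

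The leaf chelatase signal came from long unigenes that were nearly unseen elsewhere. TR68931|c0_g1, the longest member at 4411 bp, had 4, 830, 4, 1 and 1 counts and FPKM 4.12, 53.5, 3.51, 0.73 and 0.51. TR66553|c0_g1 had 212 leaf counts and FPKM 47.4, with 0 counts elsewhere, and TR64003|c0_g1 had 204 leaf counts and FPKM 36.0. TR68931|c0_g1 is one of 4 chelatase unigenes that also carry the number of cobaltochelatase, the related bacterial enzyme of cobalamin synthesis, and these 4 summed to 32.8, 53.5, 9.82, 3.35 and 5.19. The annotation does not say which chelatase subunit a unigene encodes.

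Magnesium protoporphyrin IX methyltransferase, which esterifies the propionate side chain ahead of ring closure, had 69.1, 61.9, 11.1, 15.9 and 9.34. Flower and leaf were similar (1.12, 0.686 to 1.74), and flower was 6.22 times rhizome_Y (3.48 to 10.9), or 2.54 times by CPM (1.66 to 3.96). TR56141|c0_g1 had 60, 1, 33, 19 and 18 counts and FPKM 23.8, 0.21, 11.1, 5.36 and 3.49. Outside leaf this was the order seen for porphobilinogen synthase, though here rhizome_O and secRoot were not separated (1.53, 0.763 to 3.1). A further FPKM 23.1 and 18.5 of the flower sum came from TR29965|c0_g1 and TR29965|c0_g2, described after their values were seen, which are 237 bp long and held 5 and 4 flower counts. By CPM, flower was at 29.5 and leaf at 51.1, lower in flower beyond counting error. In leaf TR56111|c0_g1 had 134 counts and FPKM 39.7.

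Magnesium-protoporphyrin IX monomethyl ester cyclase, which forms the fifth ring of chlorophyll, had 87.4 (68.4 to 115), 230.0 (218 to 246), 15.6 (9.12 to 31.6), 8.34 (4.45 to 20.7) and 9.42 (5.38 to 18.9). It was high in the tissues rich in photosynthesis transcripts: leaf was highest, flower was at 0.380 of leaf (0.295 to 0.482; by CPM 0.13, 0.104 to 0.16), and flower was 5.60 times rhizome_Y (3.27 to 10.1), 10.5 times rhizome_O (5.76 to 20.6) and 9.28 times secRoot (5.34 to 17.1). The leaf value was TR49279|c0_g1 with 0, 1362, 0, 2 and 0 counts and FPKM 229, the highest leaf value of all 87 members. TR53811|c0_g1 carried flower, with 43.5, 0, 5.78, 4.34 and 2.66. TR40343|c0_g1, described after its values were seen, had 32.2, 0.65, 8.41, 3.54 and 4.27. Both were highest in flower and held at most 10 counts in each underground tissue, and the underground tissues were not separable at this depth.

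Chlorophyll synthase, which attaches the phytyl tail, had 15.6, 47.4, 26.2, 13.7 and 7.49. Leaf was highest and flower was at 0.330 of leaf (0.226 to 0.476). Of the late enzymes it alone had no flower excess over rhizome_Y among those with complete lists (0.597, 0.389 to 0.921, though not beyond counting error by counts without length). Underground its order was the steepest of the 13 enzymes: rhizome_Y to rhizome_O 1.92 (1.17 to 3.16), rhizome_O to secRoot 1.83 (1.12 to 2.94) and rhizome_Y to secRoot 3.50 (2.26 to 5.39). TR64170|c0_g1 held 50, 1, 81, 52 and 48 counts and FPKM 15.6, 0.18, 21.7, 11.8 and 7.49, and TR60608|c0_g1 held 228 leaf counts, FPKM 47.3, and 0 elsewhere.

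The protochlorophyllide reductase entry, named for the light-driven enzyme that reduces protochlorophyllide to chlorophyllide, ran opposite to the other late enzymes. Its 11 unigenes summed to 925 (851 to 1010), 9.59 (5.01 to 20.9), 1559 (1460 to 1660), 2404 (2300 to 2520) and 3270 (3160 to 3380). On the listed contigs the root was highest and leaf, the tissue with the most photosynthesis transcript, was lowest. Leaf mostly held unigenes of its own, and 22 of the entry's 98 contigs are listed. The place of leaf in the whole entry is therefore not known. A pair of unigenes made up 53.6%, 15.6%, 89.8%, 94.4% and 93.5% of the entry. TR65098|c1_g1, 1025 bp long, had 598, 4, 1679, 3352 and 5424 counts and FPKM 468, 1.5, 1073, 1824 and 1953. TR69442|c0_g1, 283 bp long, had 9, 0, 124, 203 and 729 counts and FPKM 27.6, 0, 325, 446 and 1103. Both were lowest in leaf, next in flower, and highest in secRoot.

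The remaining unigenes of the entry, with summed FPKM 429, 8.09, 159.7, 134 and 213.6, showed a different order, with flower highest. TR38661|c0_g1 had 167, 2.32, 1.88, 3.95 and 0.54, TR60452|c0_g1 had 62.8, 0.30, 5.17, 7.83 and 4.40, and TR66909|c0_g1 had 22.6, 0, 3.09, 3.36 and 1.25. These 3, described after their values were seen, were over 5 times higher in flower than in any other tissue. TR48418|c0_g1 was nearly level outside leaf, at 52.4, 0.32, 39.6, 39.1 and 55.5, and its contigs also carry 3 other enzyme numbers, one of them chlorophyllide a oxygenase. The highest leaf unigene, TR76071|c0_g1, had 5 leaf counts and FPKM 5.15. With 22 of the 98 contigs listed, each sum is a lower limit for the entry. The entry name rests on annotation alone, and which members encode a working protochlorophyllide reductase was not tested.

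**Figure D3:**
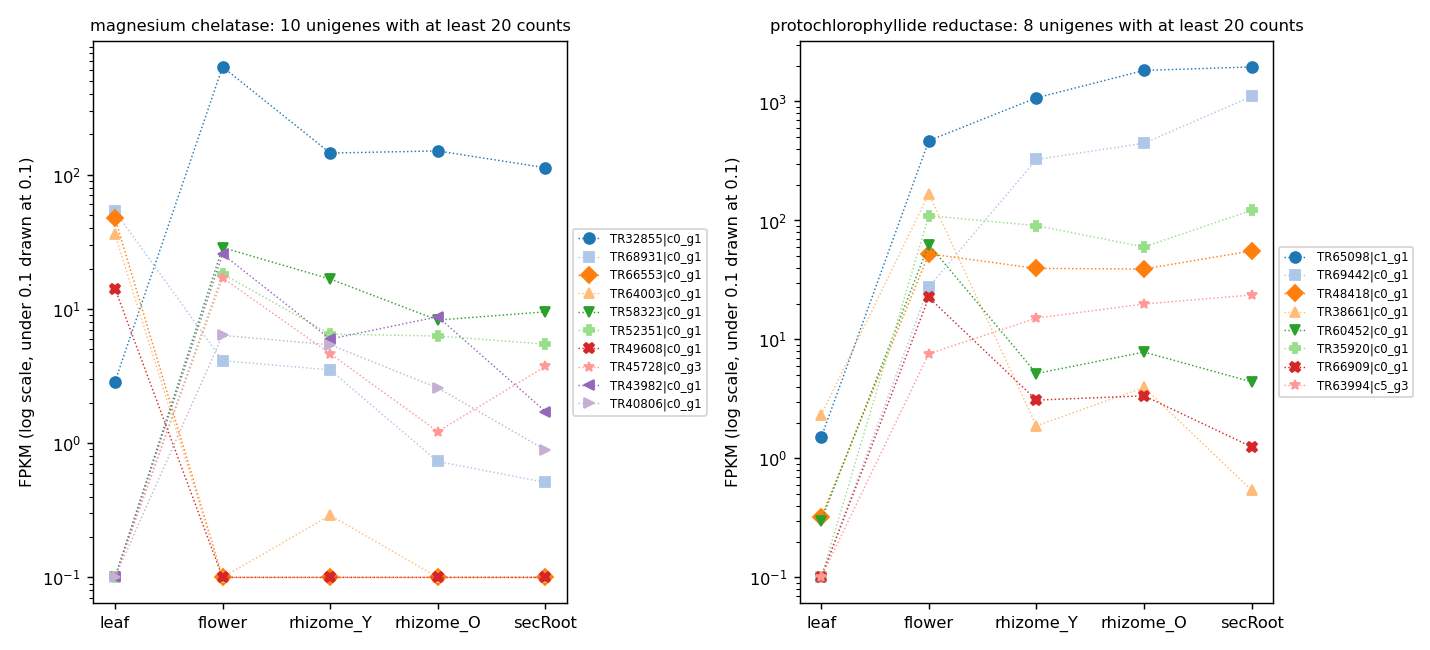
FPKM per unigene in the 5 tissues (log y axis, values under 0.1 drawn at 0.1) for the 10 magnesium chelatase and the 8 protochlorophyllide reductase unigenes with at least 20 counts, joined by dotted lines for tracing only. TR32855|c0_g1 lies above all other chelatase unigenes outside leaf, and TR65098|c1_g1 reaches 1953 in secRoot while it is at 1.5 in leaf.

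Early against late steps were then compared within each tissue. The early sum was 590.0 (546 to 642), 656 (624 to 691), 421 (391 to 457), 376 (349 to 407) and 359 (336 to 386), a range of less than 2-fold. The late sum was 1880 (1780 to 1990), 503 (481 to 528), 1819 (1720 to 1930), 2630 (2520 to 2740) and 3444 (3330 to 3560). Late to early was therefore 3.19 (2.90 to 3.51), 0.767 (0.718 to 0.819), 4.32 (3.94 to 4.74), 7.00 (6.44 to 7.62) and 9.59 (8.90 to 10.3). On the listed contigs and by FPKM, leaf was the one tissue with more early than late transcript, and the root had the largest late excess. Since the list of the reductase entry is shortened and leaf mostly held unigenes of its own, this contrast is not known for the whole entries.

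In this ratio the underground tissues no longer led once the reductase entry was set apart. The entry was 49.2%, 1.91%, 85.7%, 91.4% and 95% of the late sum. Without its pair of abundant unigenes late to early was 2.35, 0.764, 0.997, 0.958 and 1.08, and without the whole entry 1.62, 0.752, 0.618, 0.601 and 0.484. Flower stood highest in both cases. Among the 10 enzymes with complete lists it was 0.339 (0.269 to 0.423), 0.563 (0.523 to 0.606), 0.146 (0.115 to 0.184), 0.122 (0.0842 to 0.171) and 0.0877 (0.0630 to 0.119). On these 10, leaf had the highest late share, flower came next, and the underground tissues were lowest. Summed photosynthesis FPKM also had leaf first, flower next and the underground tissues below. The late enzymes with complete lists were the methyltransferase, the cyclase and chlorophyll synthase. Of the leaf late sum of 339, the cyclase gave 230.0, nearly all of it from TR49279|c0_g1 (FPKM 229). Of the flower late sum of 172 it gave 87.4, so the lead of leaf over flower rested largely on the cyclase. On these lists the early sum fell from leaf to secRoot by a smaller factor, at 508, 602.5, 362, 311 and 299, than the late sum, at 172, 339, 52.9, 37.9 and 26.3. By CPM the ratio for these 10 enzymes was 0.193, 0.683, 0.132, 0.0893 and 0.0612, and for all 13 it was 1.5, 1.1, 1.89, 3.16 and 3.84, so in leaf it then passed 1.

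**Figure D4:**
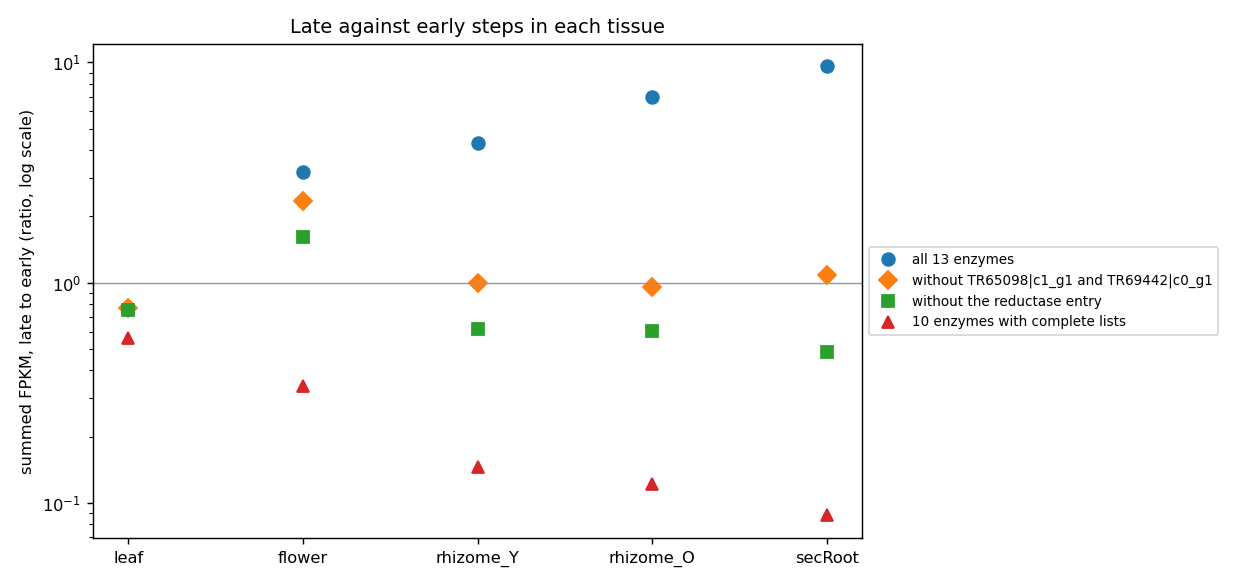
Ratio of the summed FPKM of late to early enzymes per tissue on a log y axis, with the grey line at 1. Circles use all 13 enzymes and reach from 0.767 in leaf to 9.59 in secRoot, while triangles, for the 10 enzymes with complete lists, run from 0.563 in leaf down to 0.0877 in secRoot.

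Between flower and rhizome_Y the late enzymes spread further than the early ones, in both directions. Of the 8 early enzymes 5 were higher in flower beyond counting error and 3 were not separated, with ratios between 0.976 and 2.34. Of the 5 late enzymes 3 were higher in flower, namely magnesium chelatase, the methyltransferase and the cyclase, with ratios of 3.78 to 6.22, and 2 were lower, the reductase entry (0.593, 0.535 to 0.658) and chlorophyll synthase. By CPM the early ratios ran from 0.832 to 2.91 and those of the 3 late enzymes from 2.54 to 5.72, so the stages overlapped. At the level of unigenes with at least 20 counts in the pair, 14 of 30 members were over 2-fold higher in flower (5 of 15 early, 9 of 15 late), against 18.7% of all unigenes, and 2 were over 2-fold higher in rhizome_Y, against 14.7%. TMM factors over all 5 libraries gave 10 and 5, and over the 4 tissues 13 and 2. The shares of all unigenes under either set of factors are not given. The median log2 ratio of flower to rhizome_Y was 0.57 for early and 1.48 for late members, beside 0.08 for all 21073 unigenes tested. With TMM factors over all 5 libraries the early median would be -0.27. Those factors shift all unigenes alike, and the median of all unigenes under them is not given. The change of sign is therefore not a result about the members.

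Flower against leaf was divided by the separation of the leaf library. There 28 of 52 members were over 2-fold higher in flower (background 46.2%) and 24 higher in leaf (53.5%), close to the shares of all unigenes. By summed FPKM, flower was higher for 3 early and 2 late enzymes and lower for 3 early and 2 late. The other 3 were not separated. The late enzymes higher in flower, magnesium chelatase and the reductase entry, have shortened lists, as has protoporphyrinogen oxidase among the early ones. By counts without length, flower was higher for 2 early and 1 late enzyme and lower for 4 early and 3 late.

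**Figure D5:**
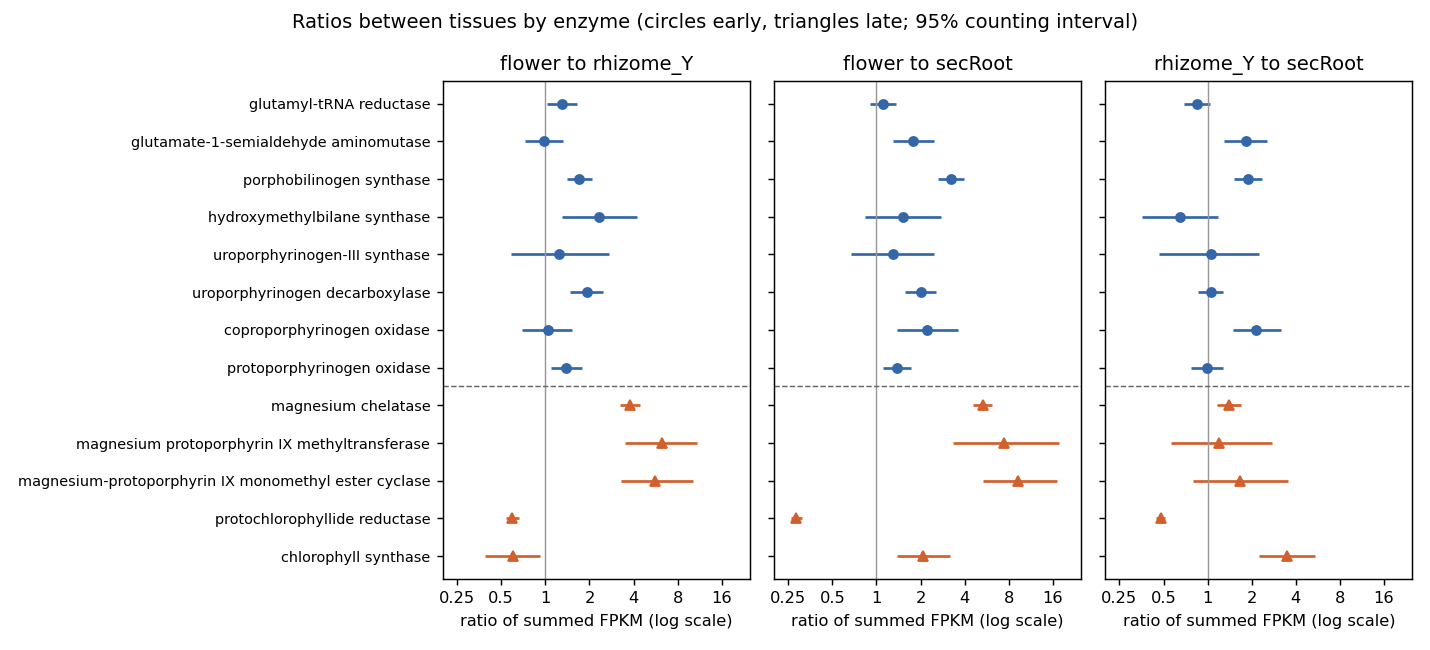
Ratios of summed FPKM between tissues for the 13 enzymes in pathway order (log x axis, circles early, triangles late, bars 95% counting interval), for flower to rhizome_Y, flower to secRoot and rhizome_Y to secRoot. Magnesium chelatase, the methyltransferase and the cyclase lie at 3.78 to 9.28 in the first and second panels, and the reductase entry lies below 1 in all 3. The methyltransferase is at 2.54 from flower to rhizome_Y by CPM. Under TMM factors over all 5 libraries every ratio within a panel would shift by the same factor.

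Among the underground tissues differences were smaller. The order rhizome_Y above rhizome_O above secRoot held for 6 of 13 enzyme sums: the aminomutase, porphobilinogen synthase, the decarboxylase, coproporphyrinogen oxidase, magnesium chelatase and chlorophyll synthase. Both steps were larger than counting error for porphobilinogen synthase and chlorophyll synthase only. Magnesium chelatase (1.1, 0.91 to 1.34) and coproporphyrinogen oxidase (1.3, 0.97 to 1.76) were not separated from rhizome_Y to rhizome_O, nor was the aminomutase from rhizome_O to secRoot (1.25, 0.938 to 1.69), and the decarboxylase was separated at neither step. The order held for 5 with TMM factors over the 4 tissues and for 0 with TMM factors over all 5 libraries. The reductase entry had the reverse order, at rhizome_Y to rhizome_O 0.648 (0.6 to 0.7) and rhizome_O to secRoot 0.735 (0.695 to 0.777).

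Few single unigenes passed 2-fold underground. From rhizome_Y to rhizome_O 3 of 26 members were over 2-fold higher in rhizome_Y (background 7.4%) and 2 in rhizome_O (9.1%). From rhizome_O to secRoot 2 of 27 were higher in rhizome_O (10.3%) and 3 in secRoot (10.6%), and from rhizome_Y to secRoot 3 of 26 were higher in rhizome_Y (9.79%) and 2 in secRoot (11.9%). TMM factors over all 5 libraries, which rescale every unigene of a library alike, instead put 26 of 26 members higher in rhizome_O than in rhizome_Y. They put 27 of 27 higher in rhizome_O than in secRoot. The shares of all unigenes under these factors are not given, so these counts are not a result about the members. The members did not stand apart from the background in these pairs on the FPKM scale, with median log2 ratios between 0.02 and 0.23 beside -0.09 to 0.08 for all unigenes.

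By the tissue of highest FPKM, the 60 members with at least 20 counts were divided into 23, 24, 5, 1 and 7. The shares of all unigenes with that minimum were 22.1%, 36.9%, 11.1%, 15.0% and 14.9%. With the leaf library set aside, 36 members kept 20 counts over the other tissues, and 23 of them had their maximum in flower (11 early, 12 late), 5 in rhizome_Y (4 early, 1 late), 1 early member in rhizome_O and 7 in secRoot (2 early, 5 late). The background for these 4 tissues was 35.0%, 17.5%, 24.0% and 23.5%. A flower maximum was thus more frequent among the members than among all unigenes, and a rhizome_O maximum less frequent; no test was made. With at least 100 counts, the maxima were divided into 12, 16, 5, 0 and 5, and the shares of all unigenes at that minimum are not given.

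The neighbouring enzymes were taken from a list of 12 further entries with 61 unigenes outside the members, 39 of them with at least 20 counts. Of these 39, the numbers highest in each tissue were 7, 22, 1, 8 and 1. The shares of all unigenes with that minimum were 22.1%, 36.9%, 11.1%, 15.0% and 14.9%. Upstream, glutamate-tRNA ligase, which charges the tRNA that feeds the pathway, had 85.3, 182, 79.2, 97.2 and 81.6, with leaf above the rest. On the chlorophyll side, chlorophyllide a oxygenase, which makes chlorophyll b, had 153, 294.5, 113, 125.8 and 125.0 from 22 of its 44 contigs. Divinyl reductase, which reduces a vinyl group of the chlorophyll ring, had 15.6, 22.6, 9.61, 9.54 and 10.1 and was highest in leaf, as was chlorophyll b reductase, which starts chlorophyll b breakdown, with 31.0, 134, 23.03, 30.5 and 22.8. Chlorophyllase, which removes the phytyl tail, had 9.67, 64.8, 0.90, 28.8 and 2.37, a profile with rhizome_O above flower and the other underground tissues.

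The iron and siroheme branches did not follow a single profile. Ferrochelatase had 49.2, 415, 39.0, 40.9 and 26.8 from 22 of its 77 contigs, and heme oxygenase, which opens heme toward the phytochrome chromophore, had 51.3, 367.5, 44.5, 53.0 and 36.9 from 22 of 36. Both were highest in leaf. Elsewhere ferrochelatase was higher in flower than in secRoot (1.84, 1.11 to 3.01, though not beyond counting error by CPM), and heme oxygenase higher in rhizome_O than in secRoot (1.44, 1.02 to 2.03). The next enzyme, phytochromobilin:ferredoxin oxidoreductase, was low, with 7.62, 12.8, 8.30, 3.76 and 8.77. Uroporphyrinogen-III C-methyltransferase, which opens the siroheme branch, had 38, 60, 82, 241 and 285 counts and FPKM 10.7, 78.6, 19.4, 48.8 and 39.0, so outside leaf it was higher in rhizome_O and secRoot than in flower. Sirohydrochlorin ferrochelatase, which completes siroheme, had 17.2, 21.0, 31.0, 23.4 and 18.5. The oxygen-independent coproporphyrinogen dehydrogenase entry shares TR56136|c0_g1 with coproporphyrinogen oxidase and had 26.2, 7.10, 2.57, 6.51 and 10.7. 5-Aminolevulinate synthase, the animal and bacterial route that plants do not use, had 7 counts, all in rhizome_Y, over 2 unigenes.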

How the data were processed

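Per the paper's methods, the authors trimmed reads with Trimmomatic, assembled all tissues with Trinity, mapped each library with Bowtie 2 and ran RSEM. The deposited expected counts are read pairs per contig as estimated by RSEM, and all were whole numbers. The deposited FPKM divide them by effective contig length and library depth, and the deposited TPM are the same values brought to an equal sum per library. No version was stated for Trimmomatic or RSEM. Counts and FPKM were summed over all 172 contigs of the 87 unigenes; columns of other samples numbered 0. Intervals of sums are Fay-Feuer gamma intervals and those of ratios conditional intervals on effective counts, both tested on simulated data. The ratio intervals are exact for a single contig and approximate for sums over contigs of unequal length. Median log2 ratios used FPKM with 0.1 added. No sequence was used. Members and lists were chosen with earlier results of these data known. Named unigenes were, per enzyme, the highest in leaf, the highest on average over the other 4 tissues, and any other with at least 200 counts; others are stated as described after their values were seen. Neighbouring enzymes appear as sums. Alternatives were TPM, TMM (edgeR 4.0.16, R 4.3.3), median-of-ratios factors, other minimum counts and pseudocounts, listed or most abundant contigs only, and left-out unigenes or entries. Tables and intervals were made with pandas 2.3.3, numpy 2.4.6 and scipy 1.17.1 in Python 3.11.15, and plots with matplotlib 3.10.9.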

Additional observations from a re-analysis of the deposited data

How the results depend on the processing

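Of the summary values recomputed under other settings, 149 stayed close to the reported value (within its interval, or for counts within 1.5 times), 61 moved and 14 turned direction. All 14 were late to early ratios that passed from above 1 to below it, or in leaf by CPM from below to above. Among them were 0.997 in rhizome_Y and 0.958 in rhizome_O, both close to 1. The 149 include late to early ratios under TPM, TMM and median-of-ratios factors. Those could not move, since scaling of a whole library cancels in them. This ratio, in flower, leaf, rhizome_Y, rhizome_O and secRoot where it moved, depended on the members kept: 0.339, 0.563, 0.146, 0.122 and 0.0877 without the 3 shortened lists; 2.86, 0.927, 3.47, 6.04 and 6.64 with unigenes of at least 500 bp; 1.5, 1.1, 1.89, 3.16 and 3.84 as CPM; 0.193, 0.683, 0.132, 0.0893 and 0.0612 as CPM without the shortened lists; and, leaf aside, 2.33, 1.55, 1.38 and 1.37 as geometric means over enzymes. With listed contigs only it was, leaf aside, 3.55, 4.97, 8.32 and 11.3, and with the most abundant contig 4.20 in flower, 0.826 in leaf, 6.10 in rhizome_O and 10.9 in secRoot. Without the pair of abundant reductase unigenes it was, leaf aside, 2.35, 0.997, 0.958 and 1.08, without the reductase entry 1.62, 0.618, 0.601 and 0.484, without members with a second enzyme number 7.66 in rhizome_O and 10.8 in secRoot, and without the top unigene of each enzyme 2.62 in flower, 0.41 in leaf and 5.98 in rhizome_O. The settings with 500 bp, CPM, TMM over 4 tissues, and without the reductase unigenes or entry were chosen after seeing the data.

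TMM factors over all 5 libraries, between 0.0651 and 5.23, changed most comparisons between tissues. Enzymes highest in leaf became 12, highest in flower 0, highest in flower without leaf 0, in the order rhizome_Y, rhizome_O, secRoot 0, and lowest in secRoot 3. Members over 2-fold became 5 for rhizome_Y over flower, 0 for rhizome_Y over rhizome_O, 26 for the reverse, 27 for rhizome_O over secRoot and 0 for the reverse. These factors rescale every unigene of a library alike, and the shares and medians of all unigenes under them are not given. The counts above and the medians below are therefore not results about the members. Median log2 ratios became, with a change of sign from FPKM for flower to rhizome_Y, between the rhizomes and from rhizome_Y to secRoot, for early members -10.48 (flower to leaf), -0.27 (flower to rhizome_Y), -2.65 (between the rhizomes, younger to older), 2.5 (rhizome_O to secRoot) and -0.25 (rhizome_Y to secRoot), and for late members -2.69 between the rhizomes and 2.41 from rhizome_O to secRoot. TMM over 4 tissues moved none of these counts by over 1.5 times. With at least 100 counts, maxima were 12 in flower and 0 in rhizome_O, and members over 2-fold were 11 for flower over leaf, 3 for flower over rhizome_Y, 0 for each direction between the rhizomes, 1 for rhizome_O over secRoot and 1 for secRoot over rhizome_Y, since fewer members were tested. With no minimum, maxima were 35 in flower, 9 in rhizome_Y and 4 in rhizome_O. Shares of all unigenes at these other minima are not given. With TPM, 3 members had their maximum in rhizome_O, and with the most abundant contig 3 enzymes were highest in flower. Apart from these, the cause of each change was not tested. No paired analysis was possible because each tissue had 1 library.

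Short members limit the FPKM scale: 34 of 87 were under 500 bp, and 27 held under 20 counts.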
